A study of Mus musculus with 8 samples.

Results

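The regions described here are unnamed gene models: intervals that the deposited table of normalized counts lists with an identifier and mm10 coordinates but without a gene symbol. Members were chosen by 3 conditions, namely that the interval lies on chromosomes 1 to 19, that it shares no base with any interval that carries a symbol, and that its value is at least 10 in 4 or more of the 8 libraries. The last condition uses measured values. Of 56324 models in the table, 32111 had no symbol, 31301 of these were autosomal and 15449 lay outside named genes. The level condition kept 4873 of them and left out 10576. Just inside the threshold were the intervals chr10:85829772-85829799 and chr11:108423509-108423540, for which the fourth highest value was 10.06. Just outside were chr1:57520831-57523642 and chr16:74692239-74695382, for which it was 9.85.

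The libraries were made from 4 preparations of spermatocytes and 4 of spermatids. All 8 came from C57BL/6 male mice of 12 weeks that carry the genotype Sam68 -/-, so the groups differ in cell type and share the deletion, and no wild-type library was used here. Spermatocytes are germ cells in meiosis and spermatids are the haploid cells that follow. The cells had been separated by gravity sedimentation, a method that enriches fractions by cell size. After DNase treatment the RNA went into a strand-specific mRNA library kit. The labels do not state whether the 4 libraries of a cell type are from different mice; p-values therefore cover the spread among these samples, which may be technical.

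Most of the genome between named genes is transcribed little, but testis germ cells are known for a rich set of noncoding RNAs from such regions. One class consists of long noncoding transcripts, many of them restricted to testis. Another consists of the precursors of pachytene piRNAs, long RNAs from gene-poor loci that are cut in meiotic cells into many small RNAs bound by PIWI proteins such as Piwil1, and that often begin with uridine. This is background. The table does not say what an unnamed interval is, and no small RNA was sequenced in the libraries used.

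The libraries held 49000266 to 93975960 reads each. The 15 spermatid markers of the list used to check the fractions were all higher in spermatids, with a mean log2 level of 10.27 to 10.71 across spermatocyte libraries against 15.09 to 15.44 across spermatid ones. Of 15 spermatocyte markers, 4 were lower and 1 was higher. All 12 Sertoli cell markers were lower in spermatids, with mean levels of 9.61 to 11.77 against 6.24 to 7.54. The highest of these belonged to spermatocyte library 3. Of 8 Leydig cell markers 7 were lower, while 7 of the 8 tested among 10 macrophage and blood markers were higher, with mean levels of 3.67 to 3.81 in spermatocytes and 6.29 to 7.59 in spermatids. Of 10 spermatogonial markers 5 were higher and none was lower, with mean levels of 6.08 to 7.29 and 7.55 to 8.89. Peritubular markers (6.34 to 7.37 and 7.53 to 8.44) and endothelial markers (5.64 to 5.89 and 7.15 to 7.27) each had 5 of 8 higher and 1 lower. The part of these other cell types in the rises and falls below was not tested. In bulk libraries such as these, fewer cells of a type and less RNA per cell cannot be told apart. Khdrbs1, the gene for Sam68, had values of 3421 to 4985 in spermatocytes and 625 to 1129 in spermatids. A count over the whole gene need not fall within the deleted part, so these values check nothing about the deletion.

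The members fell into 2 kinds by length. The shortest was 20 bases, the median 299 and the longest 729077. Intervals of at most 200 bases, called short here, numbered 2385 and had a median length of 36 bases. The 2488 long intervals had a median length of 2280 bases. This boundary was chosen after the lengths and changes had been seen, so no test was made between the kinds. Short members peaked at 29 bases with 244 intervals, at 30 bases with 330 and at 31 bases with 144. Over the whole deposit 7104 models without a symbol were 24 to 34 bases long, against 1 model with a symbol. Such intervals are shorter than the fragments a messenger RNA library usually holds, and how reads were assigned to them is not given in the sources used here.

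**Figure D1:**
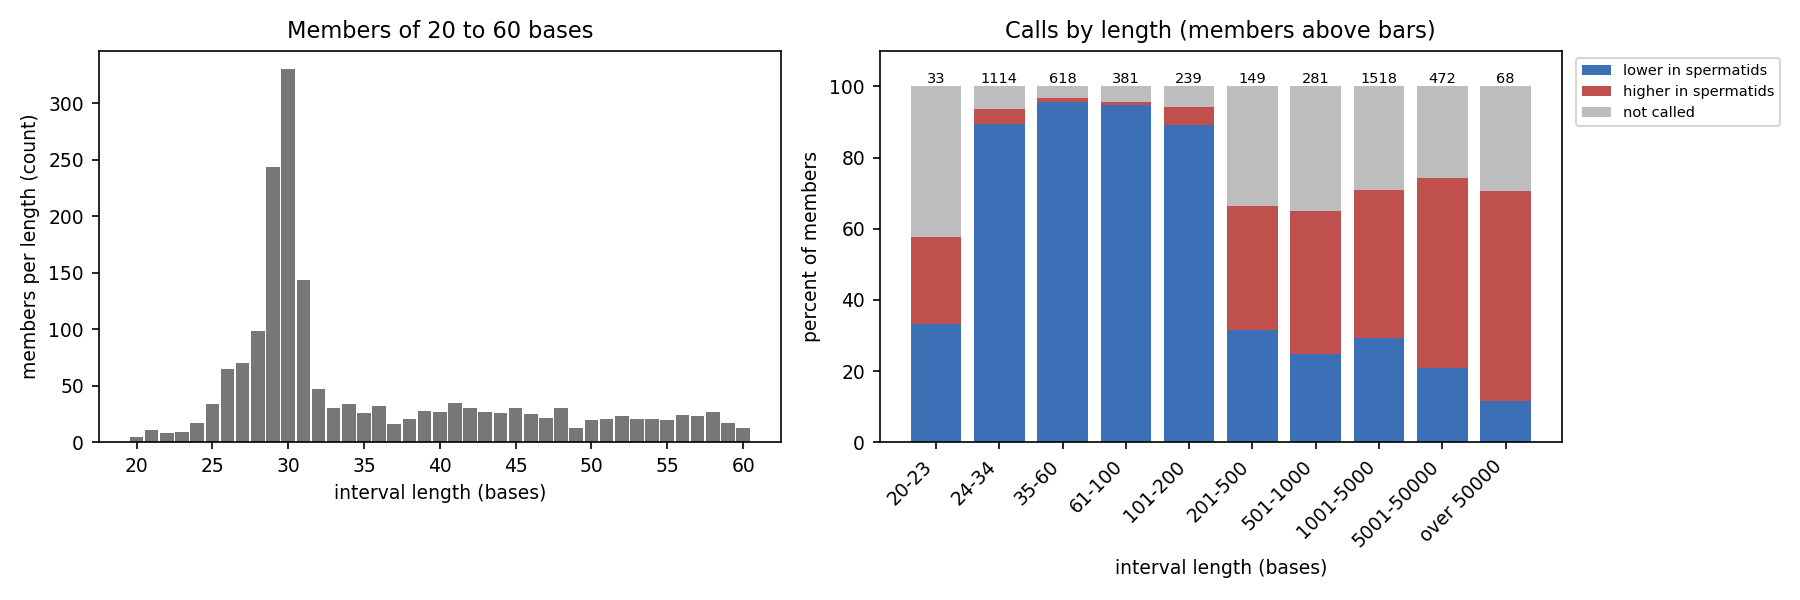
The left panel plots the number of members (y) at each interval length from 20 to 60 bases (x), with the peak of 330 intervals at 30 bases. The right panel plots the percent of members called lower, higher or not called in spermatids (y) for each length class in bases (x), with the number of members above each bar; between 24 and 200 bases at least 89.1% were lower.

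Where a short member lies inside an exon that GENCODE M21 annotates on 1 strand, its sequence could be read from that transcript. This was so for 439 of the 2385 short members (18.4%), of which 226 were 24 to 34 bases long. The intervals below are from the exons of long noncoding genes in 3 large groups of members described further on, and show how such intervals begin. Each is written 5′ to 3′ on the strand of the transcript, with its first base in capitals, and all were read from the GENCODE M21 transcripts of GRCm38, the build of the table.
Gm21269, chr7:73821766-73821795: Tcagaccacttctctctcagattctgttgt
Gm21269, chr7:73825462-73825488: Tggaatagagtccaactcctaagacag
Gm21269, chr7:73825503-73825529: Ggcaaatgcaagaagtcttcagtcaag
Gm49794, chr17:27365228-27365254: Tgaggacccgaagcgcaagcctggcga
Gm49794, chr17:27366086-27366110: Tgcctgcgacgggaatctgcccact
Gm49794, chr17:27367238-27367267: Gcaaaatcaccttttacttacatgtggctt
Gm21388, chr3:34878418-34878443: Taaagctattaatgctgcgtgcagaa
Gm21388, chr3:34878550-34878576: Tgcacacacaggtatgtctgtctctgt

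Of the 226 intervals of 24 to 34 bases, 171 (75.7%) began with T on the strand of the transcript. T stood at the second position in 11.5%, at the other positions in 23.4% on average, and at the base before the interval in 23.9%. Read on the opposite strand, 40.3% of the same intervals began with T. A at the tenth position was found in 33.6%, against 27.6% at other positions. The share with T first was 84.2% of 114 intervals in exons of long noncoding genes, 84.1% of 44 in exons of protein-coding genes and 56.3% of 64 in pseudogene exons, where the opposite strand gave 68.8%. It was 76.0% of the 171 intervals lower in spermatids, 71.4% of the 28 higher ones and 77.8% of the 27 that were not called. By length it was 6 of 21 intervals of 20 to 23 bases, 77.8% of 108 intervals of 35 to 60 bases and 54.8% of 84 intervals of 61 to 200 bases. Sequence played no role in the choice of members. Neighbouring intervals share transcripts and repeats and are not independent, so these shares are a description. Where an interval starts was set by the gene models, and how these were built is not given in the sources used here.

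**Figure D2:**
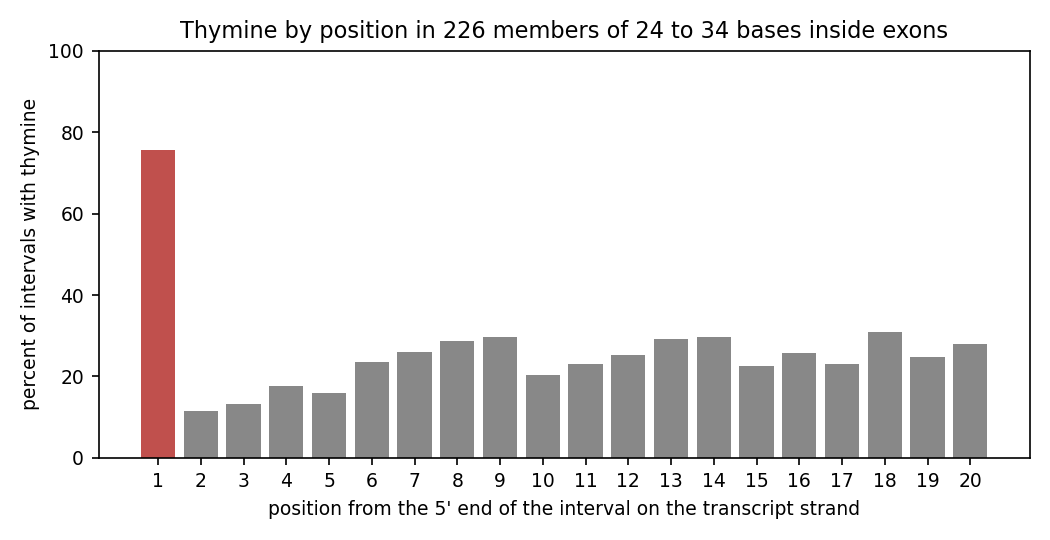
Percent of intervals with thymine (y) at each of the first 20 positions, counted from the 5′ end on the strand of the transcript (x), in the 226 members of 24 to 34 bases with a sequence. Position 1 stands at 75.7% and position 2 at 11.5%, while positions 3 to 20 lie between 13.3% and 31.0%.

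The comparison of spermatids with spermatocytes asked which unnamed regions differed between the cell types. Values were compared as log2 of the normalized count plus 1 with limma over all 28735 models that met the level condition, and a call required an adjusted p (Benjamini-Hochberg) under 0.05 together with a log2 fold change of 1 or more in either direction. Of the 4873 members, 1164 (23.9%) were higher in spermatids, 2840 (58.3%) were lower and 869 were not called. Over all tested models 62.3% were called, 32.5% higher and 29.8% lower. The share of members that fell was thus above the background and the share that rose was below it. The median log2 fold change was -2.02 for the members and -0.01 for all tested models. Among 5205 unnamed autosomal models that overlap named genes, 28.7% were higher and 34.5% lower. Among 17768 autosomal models with a symbol, 34.2% were higher and 21.5% lower.

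Most of the falls were in short members. Of the 2385, 2173 (91.1%) were lower in spermatids, 76 were higher and 136 were not called, with a median log2 fold change of -3.85. Long members showed no such tilt: of 2488, 1088 (43.7%) were higher, 667 (26.8%) were lower and 733 were not called, with a median of 0.49. Of 741 unnamed short intervals that overlap named genes, 579 were lower and 36 were higher. Only 23 short autosomal models with a symbol were tested, 7 higher and 7 lower. Within the short members the share that fell was 89.5% of 1114 at 24 to 34 bases, 95.6% of 618 at 35 to 60 bases and 94.8% of 381 at 61 to 100 bases. The 33 members of 20 to 23 bases stood apart, with 11 lower and 8 higher.

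Because a member needs 10 normalized counts in only 4 libraries, it can enter through 1 cell type alone, and then it had to differ. This was so for 1809 members that met the level in all 4 spermatocyte libraries and no spermatid library, of which 1712 were short, and for 441 that met it only in spermatids, of which 404 were long. The 1563 members at 10 or more in all 8 libraries do not have this property. Of these, 381 (24.4%) were higher and 578 (37.0%) were lower, against 27.9% and 24.5% of the 19711 tested models at that level. Among them, 180 of 289 short members (62.3%) were lower and 22 (7.61%) were higher. The 1274 long ones divided into 359 higher and 398 lower. A second view that does not use the level takes all 15449 unnamed autosomal intervals outside named genes. Of the 8211 short ones with any read, 7665 (93.4%) had the higher mean in spermatocytes, compared with 1928 of 4866 long ones (39.6%).

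Short members lay close together. Members within 10 kb of the next on a chromosome were joined into groups, which gave 48 groups of 10 or more members on 17 chromosomes. These groups spanned 1.26 to 76.9 kb, with a median of 11.5 kb, and held 2086 members, among them 2030 short ones (85.1% of all short members). In the 48 groups 2024 members were lower in spermatids, 22 were higher and 40 were not called. Every member was lower in 38 groups. For 1589 of the 2086 the fall was fixed by the level condition, since they met it in spermatocytes only, so these counts are a description. Of the 212 at 10 or more in all 8 libraries, 185 were lower, 8 were higher and 19 were not called. The 355 short members outside large groups gave other counts: of the 111 that lay alone, 34 were lower and 23 higher, and of the 244 in groups of 2 to 9, 169 were lower and 32 higher. The level was met in spermatocytes only by 15 of the 111 and by 124 of the 244. At 10 or more in all 8 libraries, 12 of 59 lone short members were lower and 7 were higher. Members of a group can share transcripts and reads, so their counts are not independent measurements.

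The signal of the short members in the 48 groups made up 0.313% ± 0.052 (SD, n = 4) of all normalized counts in spermatocytes and 0.0171% ± 0.0019 in spermatids. In the 4 spermatocyte libraries this share was 0.285%, 0.297%, 0.390% and 0.280%, and in the spermatid libraries 0.0178%, 0.0195%, 0.0151% and 0.0161%. The cell types did not overlap. Of the 2030 short members in the groups, 1573 met the level in spermatocytes only. Their direction was fixed by the level condition, so these shares are a description. The share in short members outside these groups was 0.0982% ± 0.011 in spermatocytes and 0.0637% ± 0.0017 in spermatids. A total of 133 members overlap another member, and a read there may have been counted in both. Spermatocyte library 3, which had the highest share, also had the highest level of Sertoli cell markers; the part of other cell types in these shares was not tested.

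The largest group, at chr7:73102304-73146745, held 148 members, 145 of them short, of which 146 were lower in spermatids and none was higher. Its summed value was 25721, 29391, 33181 and 28029 in the 4 spermatocyte libraries and 838, 1319, 1075 and 1064 in the spermatid libraries. The sum was 27.1 times higher in spermatocytes and the libraries of the cell types did not overlap. The most abundant member of the group was the interval of 4933435G04Rik, a long noncoding gene in GENCODE at chr7:73124666-73126475, with values of 14314, 17532, 18409 and 16713 in spermatocytes and 456, 795, 573 and 583 in spermatids. Its log2 fold change was -4.82 ± 0.19 (SE, adjusted p = 1.40e-09, limma). A 57-base interval at chr7:73103025-73103081, where GENCODE has no gene, had a mean of 563.6 ± 66.4 (SD, n = 4) in spermatocytes and 18 ± 6.1 in spermatids. The nearest model with a symbol, Gm6567, was also lower, with a log2 fold change of -4.01.

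All 127 members of the group at chr6:127772371-127840619 were lower, and its sum was 21.6 times higher in spermatocytes. The most abundant was Gm42811 at chr6:127807951-127810719, which fell from a mean of 972.5 ± 102 to 234.5 ± 55.4 (log2 fold change -2.07 ± 0.23, adjusted p = 4.80e-06, limma). Short intervals of the same group fell further: chr6:127784512-127784566 had 727.7, 776.3, 789.5 and 1283 in spermatocytes and 26.0, 33.6, 24 and 16.3 in spermatids. In the group at chr17:27290354-27367267 all 115 members were lower, and its sum was 12.2 times higher in spermatocytes. It runs over Gm10505 and Gm49794, both long noncoding genes in GENCODE, and 3 of the sequences above come from it. One of them, chr17:27366086-27366110, had 199, 256, 408 and 514 in spermatocytes and 13.4, 5.6, 10.5 and 12.0 in spermatids. Spermatocyte libraries 3 and 4 were the highest there, unlike in the chr6 group, where the sum was lowest in library 4.

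The group at chr5:113320454-113364331 was less uniform. Of its 110 members 89 were lower, 20 were not called and 1 was higher, and its sum was 14.2 times higher in spermatocytes. Of 86 members at chr15:59247366-59299685, 84 were lower, with a ratio of 33.0. The compact group at chr7:73816627-73825900 held 71 members within 9.27 kb over the noncoding gene Gm21269, and all 71 were lower. Its summed value was 7957, 7388, 9856 and 7859 in spermatocytes and 112, 148, 117 and 125 in spermatids, a ratio of 65.9 and the highest of the 48 groups. The Gm21269 interval chr7:73825462-73825488, shown above, had 138, 188, 226 and 341 in spermatocytes and 2.7, 3.7, 3.0 and 3.3 in spermatids. Spermatid values of that size correspond to about 3 reads, the floor used here.

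In 46 of the 48 groups each spermatocyte sum exceeded each spermatid sum. The median ratio of sums was 17.6. Of the 2086 members summed, 1589 met the level in spermatocytes only, so the sums and ratios of the groups are a description. The 2 groups that were exceptions ran the other way. One, at chr4:41806286-41811107, held 11 members that were all higher in spermatids. It lies over the pseudogene Gm10601, several of its short intervals lie inside its longest one, and its sum was 863, 1964, 1644 and 1325 in spermatocytes and 5724, 11634, 10626 and 9482 in spermatids. The other, at chr3:100468832-100471407, held 10 short members of 20 to 27 bases in an exon of Tent5c, a protein-coding gene of the noncanonical poly(A) polymerase family, and all 10 were higher. Its sum was 422, 355, 140 and 275 in spermatocytes and 878, 1034, 862 and 846 in spermatids. Short members in exons of some other protein-coding genes had the opposite direction: 8 of 8 in Elfn2 and 3 of 3 in Ago2, which encodes an Argonaute protein of small RNA silencing, were lower.

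**Figure D3:**
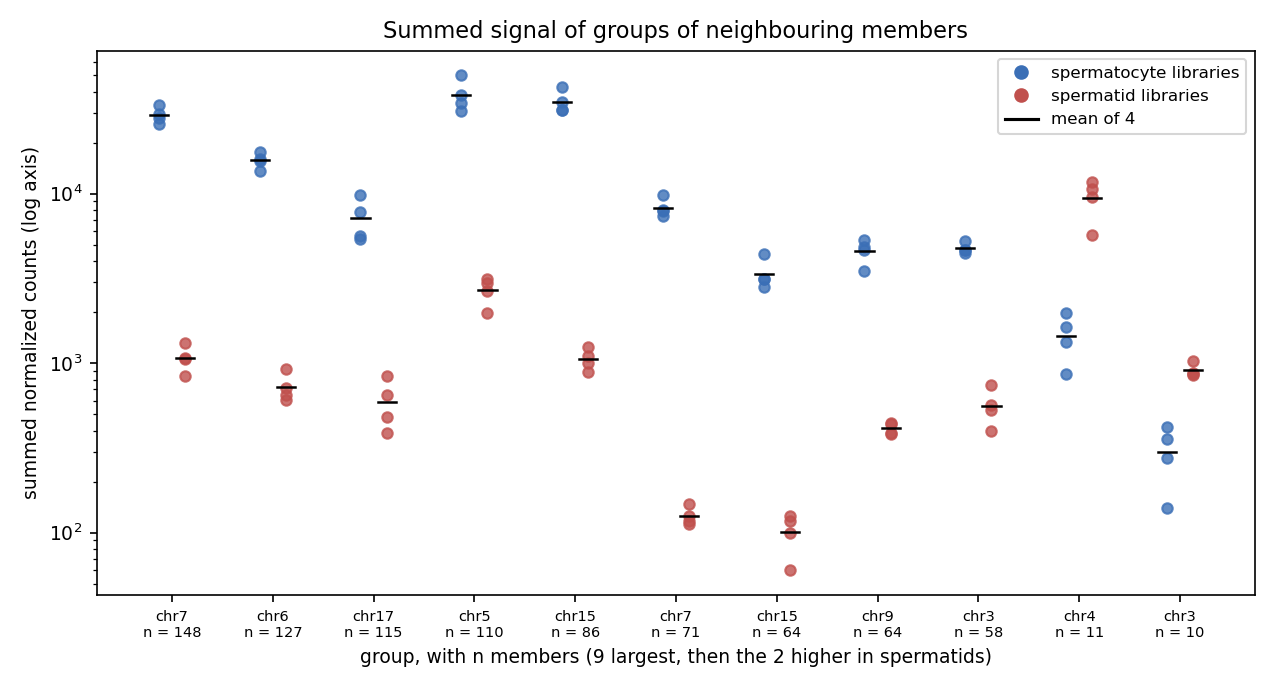
Summed normalized counts (y, log axis) of the 9 largest groups of neighbouring members and of the 2 groups higher in spermatids (x), with 1 point per library and a line at the mean of 4. In the 9 largest groups all spermatocyte points lie above all spermatid points, and in the chr4 and chr3 groups at the right the order is the reverse.

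The RefSeq hairpins examined did not cover all autosomes. Among them, hairpins of 11 microRNAs overlap 13 members, and 8 of these hairpins lie in large groups. A microRNA is a small RNA that guides silencing through its seed, bases 2 to 8. The mature sequences of those in the groups are printed because they are named small RNAs of hairpins that overlap the intervals. The seed is in capitals, and the sequences are from the RefSeq annotation of GRCm38.p6. Whether each mature sequence lies inside an interval was not tested. No seed was shared among the 20 mature sequences of the 11 hairpins.
mmu-miR-7222-5p: gGCACUUGccaggcucugagcuggacu
mmu-miR-7222-3p: uCCAGGACagugggcaggagcag
mmu-miR-7229-5p: uAGUAGACaucccuggauagc
mmu-miR-7229-3p: uACACAGAccagugacuuucugca
mmu-miR-7232-5p: uACAUGGAugauuguuuuuccaag
mmu-miR-7232-3p: uGGUUGAAuucgacuuuggggc
mmu-miR-7233-3p: uAUUGUCUgccuuuaggucuac
mmu-miR-7234-5p: uUGUUUUCuccaaagacguuucu
mmu-miR-7234-3p: aAACGUCUuucuaggguagaagg
mmu-miR-7214-3p: cUCAGUCCugaccccuugagcgca
mmu-miR-7217-5p: aACUUGUAucuugugagacagaagg
mmu-miR-7217-3p: uGAGAACCcacaagcaagaaga
mmu-miR-7242-5p: aUUGGGCUugggaggugcuugu
mmu-miR-7242-3p: uGGCAGCUcggcucuacucugg

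The members over these hairpins were counted from libraries of long RNA, so their values describe the interval and not the mature microRNA. The Mir7232 interval chr6:81895506-81895608 had 678, 560, 458 and 344 in spermatocytes and 45.7, 43.0, 31.5 and 51.2 in spermatids. The Mir7234 interval chr7:73819446-73819650, in the compact chr7 group, had 276, 190, 329 and 264 against 4.5, 0.9, 6.0 and 6.5. The Mir7222 interval chr2:92594618-92594677 had 32.2, 10.8, 23.5 and 13.7 in spermatocytes and was listed at 0 in all 4 spermatid libraries. The Mir7222 and Mir7234 intervals met the level in spermatocytes only, which fixed their fall. The Mir7242 interval chr9:67729380-67729539 was not called (log2 fold change -1.50 ± 0.69, adjusted p = 0.070, limma), although 2 of the 9 fits that left out libraries called it. Outside the groups, the member over Mirlet7d at chr13:48535256-48537118 was higher in spermatids, with 418, 412, 324 and 584 against 70.1, 40.2, 117 and 2.3 in spermatocytes (log2 fold change 3.71 ± 0.86, adjusted p = 0.0019, limma). Spermatocyte library 4 was far below the other 3 there, and without it the change was 2.60.

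The 6 largest falls among members that reached a mean of 200 in the higher cell type and whose libraries did not overlap were all intervals inside large groups. The largest was chr7:73819656-73819798 in an exon of Gm21269, with 224, 252, 332 and 597 in spermatocytes and 0.9, 0.9, 0 and 1.1 in spermatids, a log2 fold change of -7.62 ± 0.43. Its spermatid values rest on 3 reads in all. The ratio of means was 482, with an exact Poisson interval of 165 to 2335 (95%, for the spermatid reads, counting error only). The pair chr10:66695418-66695714 and chr10:66696780-66697023, where GENCODE has no gene, had means of 747.4 ± 138 and 523.1 ± 151 in spermatocytes and of 5.9 ± 4.2 and 3.8 ± 2.8 in spermatids. Both had a log2 fold change of -6.91. The intervals chr14:44937316-44937492 and chr14:44938541-44938593, in an intron of Gm16976, had log2 fold changes of -7.08 and -6.78. For the first, leaving out spermatid library 4, the sole spermatid library with a read, gave -7.90. The sixth, chr1:91404336-91404402, fell from a mean of 375.4 ± 147 to 3.5 ± 3.5 and lies 0.474 kb from 1700020N18Rik, which was lower as well (log2 fold change -3.39). Of these 6, all but chr10:66695418-66695714 met the level in spermatocytes only, so the level condition fixed their fall. Lack of overlap was a condition of the choice, so the values of the 6 are a description.

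Genes of the pathway that makes pachytene piRNAs were counted on a list of 25. All 25 were tested, 14 were lower in spermatids and 4 were higher, with a median log2 fold change of -1.12 against -0.01 for all tested models. Mybl1, the transcription factor of pachytene piRNA loci, fell by 1.12 on the log2 scale. Piwil1, the PIWI protein of meiotic and haploid germ cells, fell by 5.02, from a mean of 136863 ± 22459 to 4256 ± 1063. Tdrd5, a Tudor domain protein needed for processing precursors, fell by 4.53. The 4 that rose were Tex15 (4.91), Btbd18 (2.03), Gtsf1 (1.47) and Rnf17 (1.19). The list was chosen with results of these data known and is given as a description beside the short members.

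Long members were often annotated in GENCODE M21 although they carry no symbol in the table. Over all lengths, 2417 members touch a GENCODE gene and 1064 coincide with one, each covering at least 50% of the other. Of the 696 long members that coincide with a long noncoding gene, 371 (53.3%) were higher in spermatids and 137 (19.7%) were lower. The 282 that coincide with a gene of the GENCODE category TEC, models that await experimental evidence, divided into 141 higher and 69 lower, and the 55 over protein-coding genes into 29 higher and 11 lower. Of the 783 long members without a GENCODE gene 310 were higher and 217 lower, shares of 39.6% and 27.7%. In this order, 134, 64, 6 and 117 members met the level in spermatids only, and 10, 8, 1 and 45 in spermatocytes only. Such members had to differ by the level condition, so these counts are a description. By comparison, on the list of noncoding RNA genes with a symbol 13 of 50 tested were higher and 14 lower, with a median log2 fold change of -0.22. This comparison was not tested.

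Of the 6 largest rises 5 coincide with long noncoding genes of GENCODE. Gm36173, at chr10:53235187-53260736, had 195, 257, 288 and 296 in spermatids and 0, 2.0, 2.2 and 0 in spermatocytes, a log2 fold change of 7.19 ± 0.48 (adjusted p = 6.20e-08, limma). The others were Gm40263 (6.86 ± 0.62), whose interval also overlaps the pseudogene Gm3203, 1700047G07Rik (6.38 ± 0.78), Gm36017 (6.35 ± 0.67) and Gm31456 (6.28 ± 0.72). The remaining rise was Gm8369 on chromosome 19 (6.60 ± 0.49), annotated as protein-coding. The spermatocyte values of these 6 were all at most 19.01, and several were 0, so the size of the fold depends on few reads. Without spermatocyte library 4 the change was 6.12 for Gm40263 and 5.51 for 1700047G07Rik. Without spermatocyte libraries 3 and 4 it was 5.86 for Gm40263, 4.98 for Gm36017 and 4.84 for Gm31456, and all stayed called. Gm36173, Gm8369 and Gm36017 met the level in spermatids only, so the level condition fixed their rise. Lack of overlap was a condition of the choice, so the values of the 6 are a description.

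**Figure D4:**
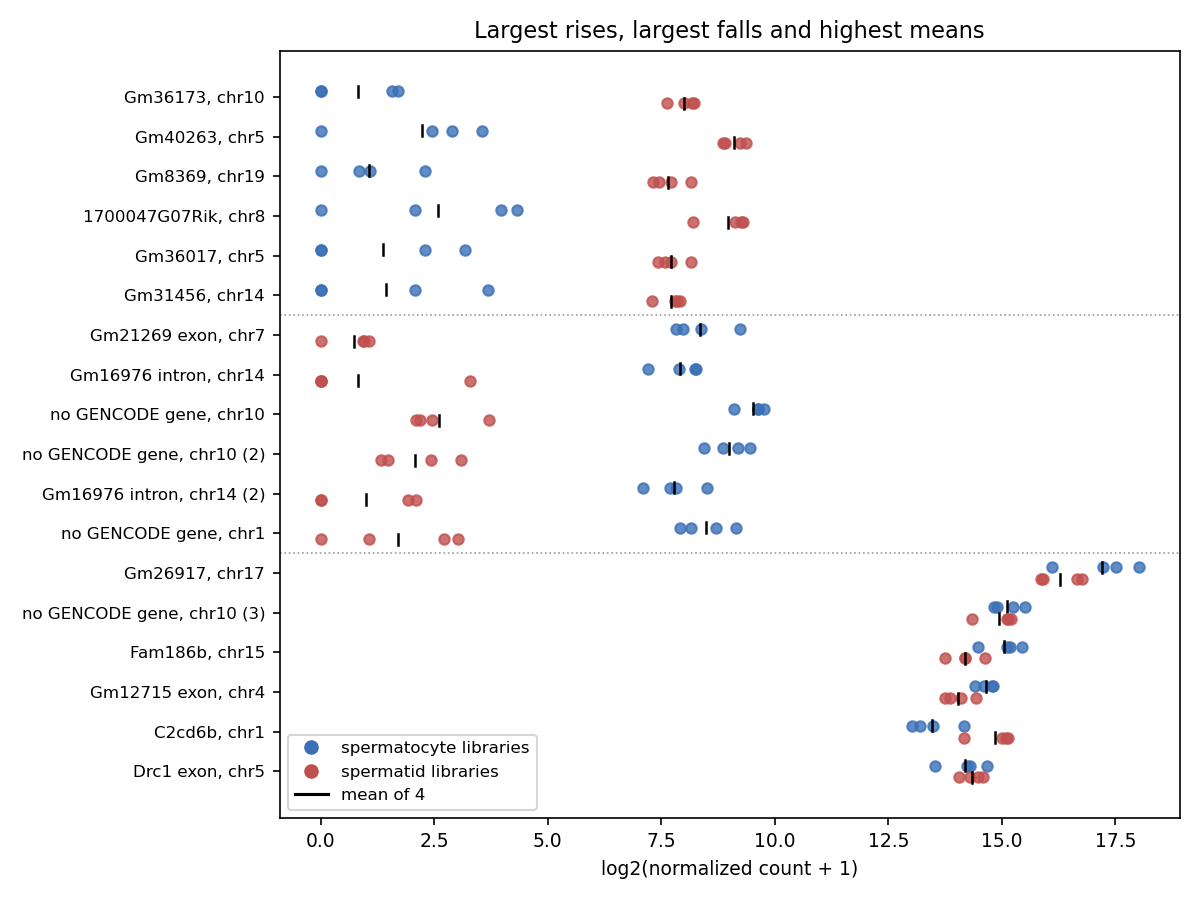
Values in each library as log2 of the normalized count plus 1 (x) of the 6 largest rises, the 6 largest falls and the 6 highest means (y, from top to bottom, separated by dotted lines), labelled by GENCODE gene and chromosome. Spermatid points lie right of all spermatocyte points in the first 6 and left of them in the next 6, as the choice of both required. They overlap in the last 6.

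Protein-coding genes among the unnamed models had some of the largest levels. Lrrc74a, at chr12:86734369-86763795, had values of 483 to 503 in spermatocytes and 12702 to 16808 in spermatids, a log2 fold change of 4.92 ± 0.16 (adjusted p = 9.53e-10, limma). Myh15, a myosin heavy chain gene, rose from a mean of 232.6 ± 79.8 to 9127 ± 1613, and Tppp2, a member of the tubulin polymerization promoting family, rose from 339.7 ± 74.6 to 6464 ± 385. Heatr9 had a log2 fold change of 5.27 ± 0.21. Otud3, a deubiquitinating enzyme, rose by 1.51 ± 0.19. Among those that fell, Bin2 had a log2 fold change of -2.23 ± 0.21. Catsperd, an auxiliary subunit of the sperm calcium channel CatSper, fell from a mean of 19639 ± 3807 to 7837 ± 1810 (log2 fold change -1.34 ± 0.21). Exosc6, a subunit of the RNA exosome, fell by 1.51, from a mean of 175.1 ± 25.7 to 63.3 ± 25.2. Prdm12 was low, with 29.8, 33.4, 25.7 and 30.8 in spermatocytes and 0, 3.7, 0 and 4.4 in spermatids. It met the level in spermatocytes only, so its fall of 3.78 was fixed by the level condition. Rpl10l, a ribosomal protein gene expressed in testis, was not called, with 14273 ± 3329 in spermatocytes and 15531 ± 1668 in spermatids (log2 fold change 0.15 ± 0.19).

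The member with the highest mean was chr17:39842997-39848829, which GENCODE annotates with Gm26917, Gm42418, AY036118 and CT010467.1, a place where ribosomal RNA sequence is annotated. It had 187071, 153325, 264880 and 70446 in spermatocytes and 110575, 59441, 60971 and 102541 in spermatids. The cell types overlapped and the change was not called (log2 fold change -0.93 ± 0.36, adjusted p = 0.036, limma, below the fold required). It was called without spermatocyte library 4 (-1.30), without spermatid library 1 (-1.08) and without spermatid library 4 (-1.05). This single interval held 4.74% to 15.8% of the members' summed counts in spermatocytes, and reads of repeated rRNA cannot be assigned to 1 place. The interval chr10:56504499-56505287, where GENCODE has no gene, followed with 28987 to 46361 in spermatocytes and 20627 to 37429 in spermatids, and was not called. Fam186b (-0.86 ± 0.24) and a Gm12715 pseudogene interval (-0.61 ± 0.19) were not called either, but equal totals gave -1.30 and -1.05 and quantile normalization -1.43 and -1.20, which were called. Fam186b was called too without spermatocyte library 3 (-1.05) and without spermatid library 2 (-1.01). C2cd6b, at chr1:58997123-59003539, was higher in spermatids, with a mean of 30468 ± 8161 against 11872 ± 4545 (log2 fold change 1.38 ± 0.28, adjusted p = 0.00073, limma). With equal library totals the change was 0.94 and with quantile normalization 0.81, both below the fold required. The model over exons of Drc1, at chr5:30341658-30366708, was not called, with 19300.0 ± 5809 and 21113 ± 3261.

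Per kilobase of interval the highest means belonged to short pseudogene intervals, shown here with the first base in capitals because so few bases held so many counts.
Dynlt1-ps1, chr6:135349648-135349676: Tagaaagcgccatcggtggtaatgcctac
Gpx4-ps2, chr10:45875637-45875665: Tgtacagcaagatctgtgtaaatggggac
Gm10297, chr7:60753557-60753583: Tactgaaaatgcttcaggagggagaga
The Dynlt1-ps1 interval had 8622, 10396, 7306 and 19191 in spermatocytes and 6731, 13395, 11867 and 11155 in spermatids, and the Gm10297 interval had means of 2872 ± 1247 and 2883 ± 385. Neither was called. The Gpx4-ps2 interval had 2606 ± 679 and 4341 ± 729 and its log2 fold change of 0.76 was below the fold required. Reads of a pseudogene and of its parent gene may be shared, so these values are uncertain. Of 143 short members in pseudogene exons 72 were lower and 28 were higher. In exons of long noncoding genes 237 of 244 short members were lower, and 1589 of 1673 where GENCODE has no gene. The level was met in spermatocytes only by 38 of the 143, 182 of the 244 and 1245 of the 1673, which fixed their fall. The shares of the 3 classes were not tested against each other.

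Distance to the nearest named gene went with direction in long members. The gap ranged up to 1567 kb. Of 715 long members within 1 kb of a model with a symbol, 212 (29.7%) were higher and 238 (33.3%) were lower. The share higher was 32.6% of 543 at 1 to 5 kb, 51.3% of 779 at 5 to 50 kb and 66.3% of 451 at 50 kb or more, where 16.0% were lower and the median log2 fold change was 3.92. The level was met in spermatids only by 38 of the 715, 70 of the 543, 173 of the 779 and 123 of the 451. This fixed their rise, so these shares and the median are a description. Among long members at 10 or more in all 8 libraries the share higher was 23.2% of 492, 17.6% of 289, 35.7% of 305 and 45.2% of 188 in the same order. At 50 kb or more the median log2 fold change of these 188 was 0.55. In short members the share lower lay between 86.1% and 92.7% at every distance. For 1712 of the 2385 short members the fall was fixed, since they met the level in spermatocytes only. The shares of short members by distance are thus a description as well. No test was made across distances.

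**Figure D5:**
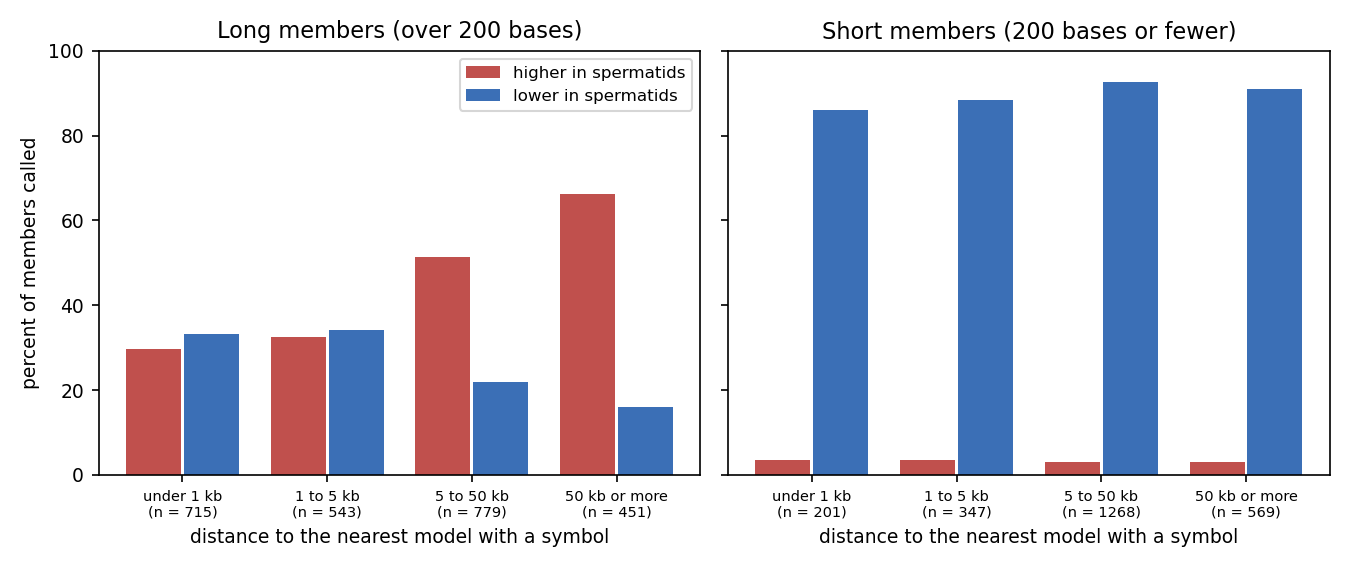
Percent of members called higher and lower in spermatids (y) by distance to the nearest model with a symbol (x), for long members at left and short members at right, with the number of members under each pair of bars. In long members the share higher goes from 29.7% under 1 kb to 66.3% at 50 kb or more, and in short members the share lower is at least 86.1% throughout. Members that met the level in 1 cell type only had to differ, so these shares are a description.

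Close neighbours mostly moved the same way as the named model beside them. Where both were called, a long member and its neighbour had the same direction in 83.1% of 260 cases within 1 kb, 79.2% of 216 at 1 to 5 kb, 68.3% of 315 at 5 to 50 kb and 66.3% of 169 beyond. For short members the shares were 155 of 155, 96.5% of 254, 64.9% of 830 and 53.1% of 273. The members of the farthest rule show the other end: 4930559C10Rik, at chr12:93416462-93444824 and 1567 kb from Sel1l, had 202, 341, 377 and 357 in spermatids and 1.6, 17.7, 11.2 and 6.9 in spermatocytes (log2 fold change 5.24 ± 0.53). Gm12378 on chromosome 4, 982 kb from Gm12371, rose from a mean of 6.9 ± 4.6 to 205.0 ± 30.2. The 25-base Gm5487 interval on chromosome 16 was not called, with 116.9 ± 30.4 and 171.3 ± 14. Members of 1 group can share a neighbour, so the cases counted above are not independent. Of the 2385 short members 2173 were lower, 1712 of them by the level condition. The shares of short members thus mainly count how many of their called neighbours were lower. Over tested neighbours, the rank correlation (Spearman) of the changes was 0.78 within 1 kb and 0.57 at 1 to 5 kb. It was 0.066 at 5 to 50 kb and -0.042 beyond, and no test was made.

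The longest intervals were low for their size. Malrd1 on chromosome 2, with 729077 bases, had means of 106.4 ± 35.8 in spermatocytes and 122.5 ± 23.2 in spermatids and was not called, nor was Gm32828 on chromosome 12, with 240.2 ± 40.9 and 176.7 ± 53.7. Gm29865 on chromosome 3 was higher in spermatids (log2 fold change 1.96 ± 0.40, adjusted p = 0.00075, limma). By chromosome the share of members lower in spermatids ran from 17.3% of 98 on chromosome 16 to 75.1% of 333 on chromosome 15, and the share higher from 12.3% on chromosome 15 to 49 of 98 on chromosome 16. Chromosomes 6 and 7, with several of the largest groups, had 72.6% of 387 and 72.6% of 497 lower. The level was met in spermatocytes only by 213 of the 333 on chromosome 15 and by 1 of the 98 on chromosome 16. Such members had to differ, and members of a group are not independent, so these shares are a description.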

How the data were processed

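RNA was measured in 8 libraries, 4 of spermatocytes and 4 of spermatids, all Sam68 -/-. Per the file headers, the deposited signal is a normalized read count per gene model with mm10 coordinates. STAR 2.4.0, DESeq, SAMtools, Picard and FastQC are listed in the submitters' processing notes. How reads were counted, with which strand setting and with which rule for several matches, is not given in the sources used here. Another 8 value columns were left aside. Within 10% of a step, 100.0% of values above 0 were whole multiples of 1 step per library, so whole reads were recovered: 49000266 to 93975960 per library. A floor of 3 reads equals 2.42 to 4.50 normalized counts and covers counting error alone.

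Models at 10 or more in at least 4 libraries were compared on log2(normalized count + 1), which understates the change of low models, with limma 3.58.1 in R 4.3.3 (trend and robust moderation) over all 28735, with Benjamini-Hochberg adjustment. The calls needed an adjusted p under 0.05 with a log2 fold change of 1 or more in either direction. The fit was tested on simulated data. Unless stated, adjusted p-values are from limma. Added sequence and annotation came from GENCODE M21 and RefSeq (microRNAs, GRCm38.p6). Named members were the 6 largest rises and 6 largest falls with a mean of at least 200 and no overlap, the 6 highest means, the 4 highest per kb, the 4 highest not called, the 3 longest, the 3 farthest from a symbol with a mean of at least 50, up to 3 members of the 3 largest groups, and those beside the level threshold. Members with short sequences, microRNA hairpins, coding genes and other groups were named after their values were seen. The members, lists and rules were chosen with earlier results of these data known. Alternatives were other pseudocounts, filters and scalings, edgeR 4.0.16 and DESeq2 1.42.0 on the recovered reads, and leaving out libraries. Library numbers follow the record order within a cell type.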

Additional observations from a re-analysis of the deposited data

Results flagged for a closer look

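In 6 of the 88 sets of 4 libraries checked, the gap between 1 library and the nearest of the others was above Dixon's 95% critical value for 4 values; chance flags about 1 in 20 sets. In spermatids, chr14:44937316-44937492 had 8.71 in library 4 and 0 in the other 3. The interval chr10:66695418-66695714 had 12.1 in spermatid library 2 against 3.27 to 4.50 in the other 3. Spermatid library 1 was the lowest for 3 abundant members: 20627 at chr10:56504499-56505287 against 35496 to 37429, 18352 at C2cd6b against 32980 to 35800, and 3251 at the Gpx4-ps2 interval against 4644 to 4781. In spermatocytes, chr6:127784512-127784566 had 1283 in library 4 against 727.7 to 789.5. The causes were not tested.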

How the results depend on the processing

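The counts of members called stayed within 1.5 times of the reported ones under other pseudocounts, a filter on the mean, no filter, TMM, median-of-ratios, equal-total and quantile scaling, limma without moderation by trend, edgeR and DESeq2. Equal totals and quantile normalization moved the median change over the tested models to -0.44 and -0.36, and that of long members to 0.07 and 0.26. Leaving out each library gave 1134 to 1168 higher and 2801 to 2867 lower members, 72 to 77 and 2159 to 2180 short ones, and 1060 to 1091 and 633 to 687 long ones; without spermatocyte libraries 3 and 4, 1135 were higher and 2872 lower. At 50 or more in 4 libraries, with fewer models tested, 763 were higher and 1104 lower (short 37 and 687, long lower 417). At 10 or more in all 8 libraries 381 were higher and 581 lower (short 22 and 180, long 359 and 401). With members at least 5 kb from a symbol 756 were higher, and 699 long ones higher and 243 lower; at least 50 kb away the counts were 316 and 590 (short 17 and 518, long 299 and 72). Changes of sign occurred in 5 members named by the rules, none of them called in the main comparison, and in Rpl10l, which was not called either (-0.14 to 0.26 over the fits that left out libraries). Leaving out each library gave -0.27 to 0.030 for chr10:56504499-56505287, -0.045 to 0.33 for Drc1, -0.20 to 0.27 for Dynlt1-ps1, -0.19 to 0.33 for Gm10297 and -0.0052 to 0.39 for Malrd1. Without spermatocyte libraries 3 and 4 the values were 0.14 for Dynlt1-ps1, -0.43 for Gm10297 and -0.14 for Malrd1. Equal totals and quantiles gave -0.27 and -0.38 for Drc1, -0.32 and -0.27 for Gm10297, and -0.18 and -0.17 for Malrd1, and median-of-ratios gave 0.022 for Dynlt1-ps1. Over the alternatives for the 38 members named by the rules, 10 of 812 values lost a call and 13 gained one. C2cd6b was among those that lost it, with equal totals (0.94) and quantiles (0.81). The cause was not tested. No paired analysis was possible because the labels give the cell types no shared replicate numbers. At the lowest levels the depth leaves fewer than 3 reads per library.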
